A study of Mus musculus with 24 samples.

Results

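Splenic B cells of NOD mice that the labels call T3 were set against splenic B cells of B6 mice that the labels call T2FO. The members are 4 of the 24 arrays of the series, 2 of each group, taken by their titles. The NOD arrays came from NOD/ShiLtJ mice, a strain that develops autoimmune diabetes spontaneously, and the B6 arrays from C57BL/6/J mice, which do not. All mice were females aged 7 weeks, and the labels name no treatment and no engineered allele. In each of 2 experiments the cells of a strain came from 1 pool of 8 mice, so each group holds 1 array from each of 2 pools, and the 6 sorted subsets of a strain share these pools. CD3+ and CD11b+ cells were depleted, and sorting used CD93 and CD23 together with B220, CD24, CD21/35 and IgM. RNA was amplified in a two-cycle procedure primed from the poly(A) tail and hybridised to Affymetrix Mouse Genome 430 2.0 arrays.

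New B cells reach the spleen as transitional cells. Transitional cells carry CD93, which mature cells lose, and gain CD23 as they pass the earliest stage. From there they join the follicular pool, which recirculates, or the marginal zone pool, which stays in the spleen and carries much CD21. T2FO cells are transitional cells on the follicular route, and T3 cells are CD93+ CD23+ cells with little surface IgM that are often described as anergic. Self-reactive B cells can be removed or silenced during these stages, and B cells contribute to diabetes in NOD mice, chiefly by presenting antigen to T cells.

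The pair was chosen from the data, by transcripts of subset markers, and not by its labels. The genes of the sort markers and of the subset lists are therefore described with no test. Every value is a log2 value that was centred on the median of its probe set over the 24 arrays, so 0 is that median and each unit is a factor of 2. A gene is the mean of all its probe sets. Such values show differences between arrays and no expression level, and levels of different genes cannot be set against each other.

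Cd93, which encodes the transitional marker, had values of -0.01 and 0.07 in the NOD T3 arrays, against 1.15 and 1.20 in the B6 T2FO arrays. Its difference, NOD T3 minus B6 T2FO, was -1.15, and in the other 20 arrays the difference between the strains was -1.01. Cd93 was thus lower in the NOD group by about the amount by which it was lower in the other NOD groups. Its 5 probe sets differed by between -2.61 and 0.09. Within NOD the group means of Cd93 were -0.87 in T1, 0.09 in T2FO, 0.03 in T3, -0.19 in FO, -0.67 in T2MZ and -0.66 in MZ. Within B6 they were 1.47 in T1, 1.18 in T2FO, 1.24 in T3, 0.06 in FO, 0.33 in T2MZ and -0.33 in MZ. In B6 the T1, T2FO and T3 arrays stood together above the rest, as their labels would have it. In NOD the arrays labelled T1 had the lowest Cd93 of that strain, and T3 lay little above FO.

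Fcer2a, which encodes CD23, had values of 1.35 and 0.84 in the NOD T3 arrays, against -0.02 and -0.29 in the B6 T2FO arrays. It was the sort marker with the largest difference upwards, 1.25, against 0.29 between the strains in the other 20 arrays. Cr2, which encodes CD21 and CD35, had values of -0.66 and -1.17 in NOD T3 and of -0.97 and -0.66 in B6 T2FO, ranges that overlap. Among the NOD groups, T3 had the second lowest Cr2 mean, -0.92, above T2FO with -1.29. Among the B6 groups, T2FO likewise had the second lowest mean, -0.81, above T1 with -1.72.

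**Figure D1:**
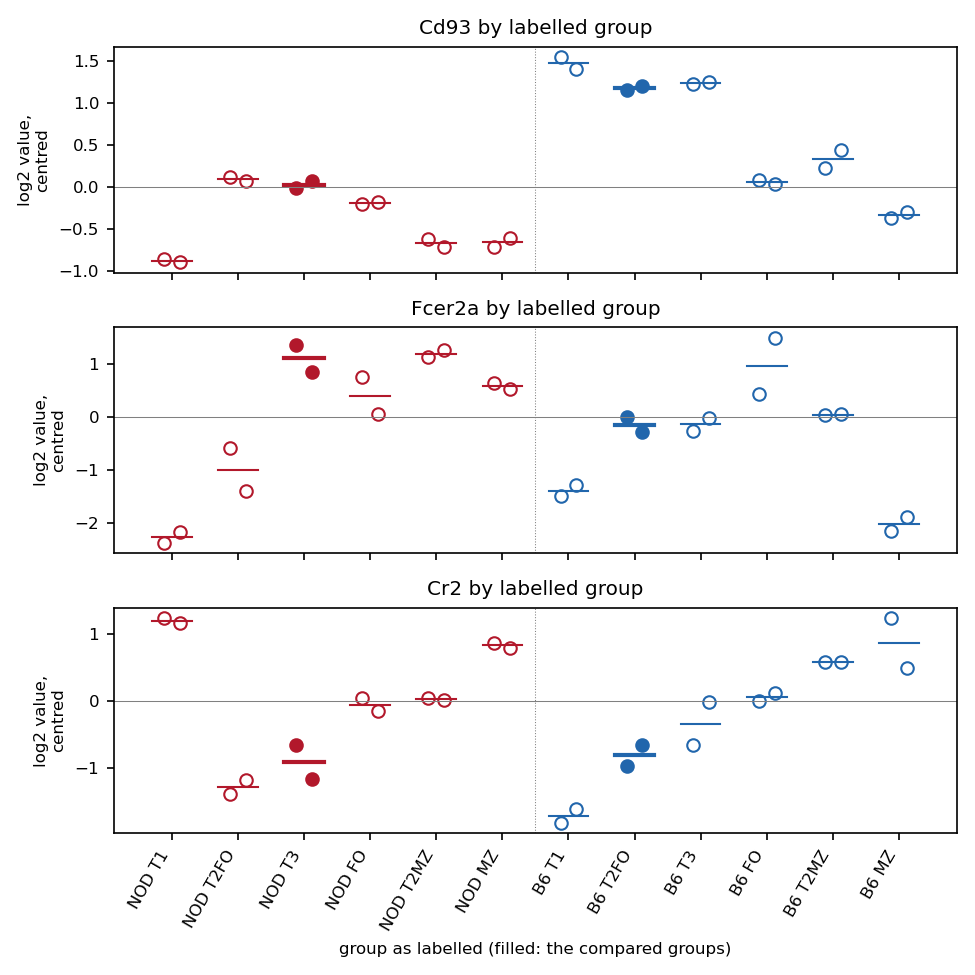
Values of Cd93, Fcer2a and Cr2 (log2, centred per probe set) in the 12 labelled groups. Each circle is 1 array, each bar the mean of a group, and filled circles are NOD T3 and B6 T2FO. The 2 filled groups lie at a like Cr2 value, whereas Cd93 is lower and Fcer2a higher in NOD T3.

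How well the 2 groups match depends on the markers and on the scale. Over 31 genes of marginal zone, follicular and immature B cells, the root mean square difference of NOD T3 from B6 T2FO was 0.485, the smallest of its 6 values, followed by B6 T1 with 0.528 and B6 T3 with 0.587. With the mean of each strain taken off each gene, B6 T2FO was again nearest, at 0.339. Over the 5 sort markers other than Ighm, B6 FO was nearest as deposited, at 0.477, and B6 T2FO followed at 0.79. With the strain means taken off, B6 T2FO was nearest, at 0.396, before B6 T3 with 0.511. Read from the B6 side with the strain means taken off, NOD FO lay nearer to B6 T2FO than NOD T3 did, at 0.309 over the sort markers and 0.324 over the subset genes. Over the sort markers as deposited NOD T2FO was the NOD group nearest to B6 T2FO, at 0.689. Labels and marker transcripts also went apart in other NOD groups. Over the sort markers with the strain means taken off, NOD T1 lay nearest to B6 MZ (0.393), NOD T2FO to B6 T1 (0.204), NOD T2MZ to B6 FO (0.312) and NOD MZ to B6 T2MZ (0.127), and over the subset genes the nearest groups of these 4 were the same. Whether NOD labels were exchanged was not tested, the transcripts do not give 1 answer on the counterpart of B6 T2FO, and the pair is called by its labels below.

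Of the subset genes, 9 follicular genes had a median difference of 0.45, with 8 above 0. Ccr7, a chemokine receptor that draws cells towards T cell areas, differed by 1.17 and Cxcr5, which draws cells into follicles, by 0.55. The median of 10 marginal zone genes was -0.21. The median of 12 genes of immature B cells was -0.06, with Lef1 at 0.72 and Myb at -0.84. These values describe the choice of the pair.

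The B6 T2FO arrays had less signal at the 5′ end of control transcripts. The array carries probe sets for the 5′ end, the middle and the 3′ end of beta-actin and Gapdh, and RNA that is broken or copied only in part loses the 5′ signal first. At the 5′ end of beta-actin the NOD T3 arrays had values of 0.72 and -0.09, against -1.36 and -4.04 in the B6 T2FO arrays. At the 3′ end the values were 0.21 and 0.09 in NOD T3, against -0.26 and -0.10 in B6 T2FO. At the 5′ end of Gapdh they were 0.65 and -0.08 in NOD T3, against -1.004 and -2.59 in B6 T2FO. Both B6 arrays were low, and replicate 2 was the lower on both controls. It was also low at the 3′ end of Gapdh, at -1.38.

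**Figure D2:**
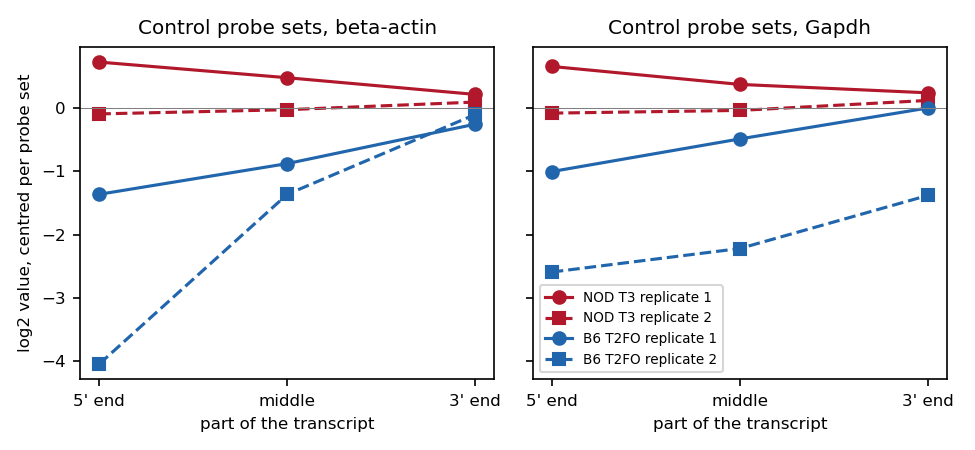
Control probe sets of beta-actin (left) and Gapdh (right) at the 5′ end, the middle and the 3′ end of the transcript, in log2 values centred per probe set. Each line is 1 of the 4 arrays. At the 5′ end the B6 T2FO arrays lie below the NOD T3 arrays, down to -4.04 in B6 T2FO replicate 2.

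Other features of the 4 arrays bear on every value below. The replicate SD, as the root mean square over genes, was 0.23 in NOD T3 and 0.39 in B6 T2FO. Each B6 T2FO array correlated best with the same-numbered B6 T1 array, with r = 0.886 for replicate 1 and 0.842 for replicate 2 over all probe sets. The best partner of NOD T3 replicate 1 was NOD FO replicate 1, with r = 0.643, and that of replicate 2 was NOD T2FO replicate 1, with r = 0.368. Markers of cells that the sort should remove did not pass the test, 0 in either direction, although under quantile normalisation the macrophage gene Adgre1 (1.86, adjusted p = 0.0482, limma) and the red cell gene Car2 (1.27, adjusted p = 0.0432) did. Median differences were -0.22 over 10 T cell genes, 0.06 over 16 myeloid genes, -0.10 over 9 genes of dendritic cells, -0.52 over 10 NK cell genes and 0.08 over 9 genes of red cells and platelets. An unadjusted p under 0.05 (limma) was held by 2 NK cell genes, 1 myeloid gene and 1 gene of red cells and platelets, and by 8.04% of all genes. The NK cell genes had medians of -0.26 and 0.09 in NOD T3, against -0.09 and 0.94 in B6 T2FO, so that B6 T2FO replicate 2 stood apart. Of the 10 NK cell genes 9 differed downwards and 1 upwards. Klra8, one of them, had values of -0.04 and -0.07 in NOD T3, against -0.21 and 2.34 in B6 T2FO. Without B6 T2FO replicate 1 it differed by -2.40. The T cell gene Thy1 had values of -0.07 and 0.54 in NOD T3, against 0.19 and 2.08 in B6 T2FO. The part of other cell types in the results was not tested.

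Of 18193 genes, 213 passed the test between NOD T3 and B6 T2FO, which is 1.17% (limma, Benjamini-Hochberg adjusted p under 0.05). Of these, 110 were higher in NOD T3, 0.605% of the genes tested, and 103 were lower, 0.566%. The count includes Cd93, which was used to choose the pair. The median size of the difference among them was 1.26 and the smallest was 0.46, while the median difference of all genes was -0.005. In all 213 the 2 arrays of NOD T3 lay on 1 side of the 2 arrays of B6 T2FO, which also held for 31.4% of all genes. An unadjusted p under 0.05 was held by 1462 genes, 8.04%. The count rests on few arrays, and on errors that take arrays of shared pools as independent. It was 97 without NOD T3 replicate 1, 104 without NOD T3 replicate 2, 125 without B6 T2FO replicate 1 and 85 without B6 T2FO replicate 2, and 58 of the 213 genes passed in each of these 4. A gene can be lower because fewer of the cells use it or because each cell holds less of its RNA, and these cannot be told apart in sorted bulk samples. Likewise, a difference in RNA and a difference between the strains in the sequence under a probe cannot be told apart in these values.

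The largest differences downwards came to 3 to 5 log2 units. D17H6S56E-5, a transcript of the MHC region on chromosome 17, had values of -2.17 and -1.31 in NOD T3, against 3.48 and 2.54 in B6 T2FO. It fell by 4.74 ± 0.56 (SE, adjusted p = 3.424e-04). The probe set annotated to the locus Mir1931, which is not read here as a mature miRNA, had values of -2.07 and -2.08 in NOD T3 and of 1.73 and 3.16 in B6 T2FO. The B6 arrays lay further apart than the NOD arrays in both genes, and the gap between the groups was larger still.

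Lynx1, which encodes a membrane-anchored modulator of nicotinic acetylcholine receptors, had values of -1.24 and -1.51 in NOD T3, against 2.74 and 1.95 in B6 T2FO. Its difference was -3.72 ± 0.31 (SE, adjusted p = 1.955e-05), and both of its probe sets passed. A630001G21Rik differed by -4.10, G530011O06Rik by -3.42, the ATPase gene Spata5l1 by -3.12 and Gm11346 by -3.10. All 4 passed, each through 1 probe set. Gm11346 did not pass without NOD T3 replicate 1 or without B6 T2FO replicate 2, with adjusted p up to 0.152.

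The largest difference upwards belonged to Zfp979, a zinc finger gene, with values of 2.11 and 2.66 in NOD T3, against -1.97 and -2.10 in B6 T2FO. It rose by 4.42 ± 0.39 (SE, adjusted p = 2.561e-05). AI506816 differed by 3.87 and LOC664787 by 2.67, both through 1 probe set. Enpp4, an ectoenzyme that splits nucleotides, had values of 2.12 and 2.28 in NOD T3 and of -0.93 and -0.51 in B6 T2FO, with both probe sets higher (2.62 and 3.22). The probe sets of Enpp4 thus gave like differences. The Golgi membrane gene Tmem87a (2.85), the kinetochore gene Cenps (2.44), the RNA processing gene Frg1 (2.40) and 2310001H17Rik (2.38) also passed. Cenps did not pass in any of the 4 repeats with 1 array left out (adjusted p up to 0.169). Frg1 did not pass without B6 T2FO replicate 2 (0.0886).

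**Figure D3:**
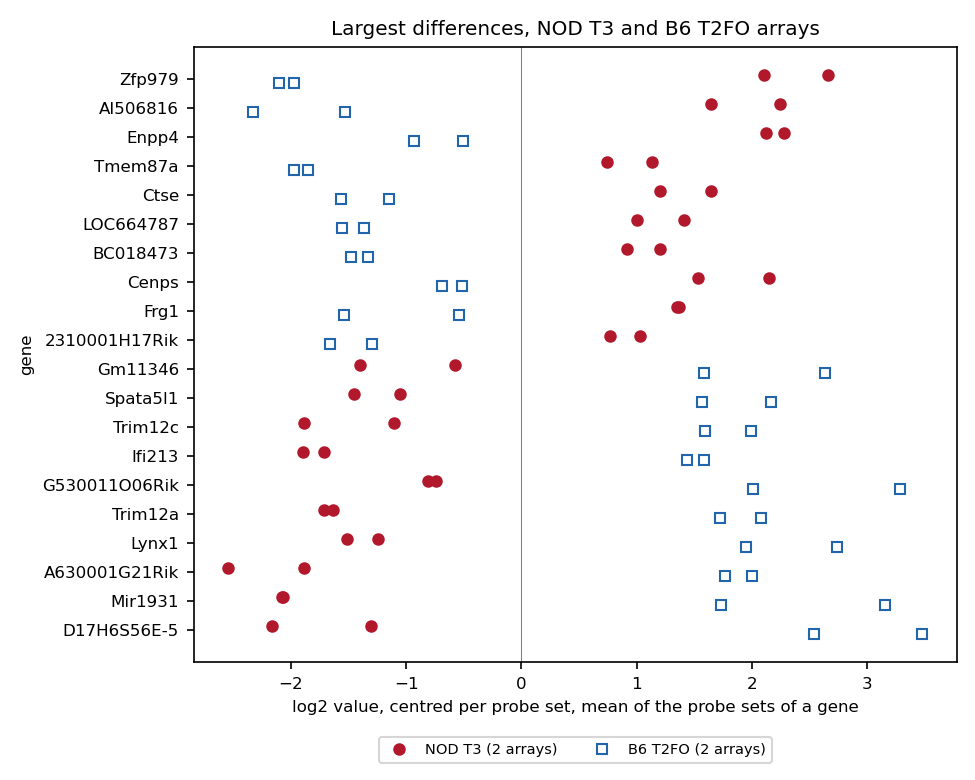
Values in the 4 arrays (log2, centred per probe set, mean over the probe sets of a gene) for the 10 genes with the largest differences each way. Filled circles are NOD T3 and open squares B6 T2FO. The 20 genes were taken from those that passed and whose arrays do not overlap, so the gap between the groups follows from the choice. Of all genes 31.4% have no overlap.

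Ctse and BC018473 passed on average although their probe sets disagreed. Ctse encodes cathepsin E, an aspartic protease of the endosomes that takes part in antigen processing. Its mean was 1.65 and 1.21 in NOD T3, against -1.57 and -1.15 in B6 T2FO, a difference of 2.78 ± 0.52 (SE, adjusted p = 0.0153). One of its probe sets differed by 5.97 and the other by -0.40. BC018473 differed by 2.46 ± 0.15, with probe sets at 5.07 and -0.14. Ctse also did not pass in any of the 4 repeats with 1 array left out (adjusted p up to 0.164). Which of the probe sets reads the transcript in B cells was not tested.

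Among the 213 genes, 78 have 1 probe set and 135 have several. Of the 135, 10 passed in each probe set, 20 in none of them alone and 31 held probe sets of opposite sign. Over single probe sets, 495 of 34945 passed, 1.42%.

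Members of a gene cluster on chromosome 7 were lower in NOD T3. The cluster encodes tripartite motif (TRIM) proteins, some of which restrict retroviruses, and has grown by duplication in mice. Of 8 measured members 4 fell and none rose, where 0.566% of all genes fell and 0.605% rose. The list median was -0.92 against -0.005 over all genes. Trim12a had values of -1.71 and -1.63 in NOD T3, against 1.73 and 2.08 in B6 T2FO, a difference of -3.57 ± 0.19 (SE, adjusted p = 2.724e-07). Trim12c had values of -1.10 and -1.88 in NOD T3, against 1.59 and 2.00 in B6 T2FO, a difference of -3.28 ± 0.32 (adjusted p = 5.507e-05). Both are near copies of each other, and their signals may be shared through probes that bind both. In each the probe sets disagreed in size, with differences of -6.10 and -1.05 in Trim12a and of -5.73 and -0.84 in Trim12c. Read only from its probe set made for 1 transcript, Trim12a differed by -1.05 and did not pass (adjusted p = 0.147).

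The likeness of the 2 copies extends to the 250 bases before their annotated starts. Both are on the minus strand, Trim12a at chr7:104315496-104315745 and Trim12c at chr7:104353350-104353599 (RefSeq sequence, build GRCm38.p6). The sequences are shown because both genes fell together. Capitals mark the longest run that they share without a mismatch, 71 bases. In a local alignment 200 of 211 columns were identical, 94.8%.
Trim12a: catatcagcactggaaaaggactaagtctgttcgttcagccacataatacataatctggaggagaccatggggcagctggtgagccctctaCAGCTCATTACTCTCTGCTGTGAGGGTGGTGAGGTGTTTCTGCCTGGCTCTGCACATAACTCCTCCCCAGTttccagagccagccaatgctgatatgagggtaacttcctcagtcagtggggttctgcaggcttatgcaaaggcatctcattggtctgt
Trim12c: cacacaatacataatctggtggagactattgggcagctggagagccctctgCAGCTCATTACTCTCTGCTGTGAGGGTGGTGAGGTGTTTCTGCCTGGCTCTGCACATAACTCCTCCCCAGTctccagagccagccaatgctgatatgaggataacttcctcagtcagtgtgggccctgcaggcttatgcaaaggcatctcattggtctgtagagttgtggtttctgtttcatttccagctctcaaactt

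The other members of the cluster differed less. Trim34a fell by 1.40 ± 0.24 (SE, adjusted p = 0.0089), and it did not pass without NOD T3 replicate 1 or without B6 T2FO replicate 1 (adjusted p up to 0.152), nor with probe sets made for 1 transcript (-1.14, adjusted p = 0.378). Trim30d fell by 0.97 ± 0.21 (adjusted p = 0.0355), and it did not pass in any of the 4 repeats with 1 array left out (adjusted p up to 0.254). Trim30a, a regulator of Toll-like receptor signalling, differed by -0.87 and missed the threshold, with an adjusted p of 0.0525. Trim5 (-0.30), Trim6 (-0.18) and Trim21 (0.08) also did not pass. The differences thus ran from Trim12a down to values near 0 within the list.

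The Ifi200 cluster on chromosome 1 split in both directions. Its proteins are sensors and regulators with HIN domains, several of which bind DNA, and many are induced by interferon. Of 8 measured members 2 fell and 1 rose, against 0.566% and 0.605% of all genes, with a list median of -0.48. Ifi213 had values of -1.71 and -1.89 in NOD T3, against 1.59 and 1.44 in B6 T2FO, a difference of -3.31 ± 0.30 (SE, adjusted p = 2.694e-05). Ifi209 differed by -2.05 ± 0.31 (adjusted p = 0.0033), through 1 probe set at -4.11 while the other stood at 0.01. Ifi204 had values of 1.24 and 1.19 in NOD T3, against -0.25 and -0.22 in B6 T2FO, a difference of 1.45 ± 0.28 (adjusted p = 0.0201). Replicates of Ifi204 differed by little, yet it did not pass in any of the 4 repeats with 1 array left out (adjusted p up to 0.154). Aim2, the DNA sensor of an inflammasome, differed by -0.61 and did not pass.

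Of 23 genes of the interferon response, 1 fell, none rose, and the median difference was -0.26. With 0.566% of all genes falling, 1 call says little about the list. Rsad2, which encodes the antiviral protein viperin, had values of -0.09 and -0.12 in NOD T3, against 1.98 and 1.39 in B6 T2FO. It fell by 1.79 ± 0.21 (SE, adjusted p = 3.424e-04). Its 3 probe sets ran from -2.66 to -0.51, and 2 passed. Ifih1 (-1.33), Usp18 (-1.21), Ifit1 (-1.08) and Stat2 (0.95) did not pass. Against the second arrays of B6 FO and MZ, where the 5′ controls were as high as in NOD, Rsad2 in NOD T3 differed by -0.31, a comparison with no test.

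The genes of 3 enzymes of cholesterol synthesis were lower in NOD T3. Cells build cholesterol from acetyl-CoA through mevalonate and squalene, and SREBP2, with the factor NF-Y, switches on the genes of this route when sterols run short. The list of enzymes was drawn up after the differences in Sqle, Hmgcs1 and Cyp51 had been seen, so its count is a description. Of 18 measured enzymes 3 fell and none rose, where 0.566% of all genes fell. Below 0 lay 15 of them, and 9273 of all 18193 genes. The median was -0.54, against -0.005 over all genes and -0.30 for the same list between the strains in the other 20 arrays.

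The first enzyme of the group, Hmgcs1, makes the precursor of mevalonate. It had values of -0.36 and -0.25 in NOD T3, against 0.95 and 1.27 in B6 T2FO, and fell by 1.41 ± 0.24 (SE, adjusted p = 0.0067). It has 5 probe sets, all lower (from -1.70 to -0.67), of which 3 passed. Without NOD T3 replicate 1 or without B6 T2FO replicate 2 it did not pass (adjusted p up to 0.103). Squalene epoxidase, encoded by Sqle, takes the first oxygen-dependent step. Sqle had values of -0.88 and -0.75 in NOD T3, against 1.37 and 1.12 in B6 T2FO, and fell by 2.06 ± 0.29 (adjusted p = 0.0016). Cyp51, the lanosterol demethylase, had values of -0.77 and -0.56 in NOD T3, against 1.30 and 1.63 in B6 T2FO, and fell by 2.13 ± 0.27 (adjusted p = 5.502e-04). Its 3 probe sets were all lower but unlike in size (from -3.36 to -0.61), and 2 passed. Sqle has 1 probe set. In all 3 genes the groups lay more than 1 unit apart. Idi1, the isomerase of the mevalonate branch, differed by -1.61 ± 0.42 and did not pass (adjusted p = 0.0995), nor did Dhcr7 (-0.84), Pmvk (-0.77) or Lss (-0.61).

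The regulators of the route did not pass. Srebf2, which encodes SREBP2, differed by -1.21, and Insig1, which holds SREBP proteins in the endoplasmic reticulum and is itself one of their targets, by -1.38. Genes of fatty acid synthesis such as Fasn (-0.42), Acaca (-0.17) and Scd1 (-0.19) had smaller differences. Scd2, a fatty acid desaturase, differed upwards by 1.12 and did not pass. Of 15 genes of lipid synthesis in all, which include Sqle and Hmgcs1, those 2 fell and none rose, against 0.566% and 0.605% of all genes. Their median was -0.18.

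The 250 bases before the starts of Hmgcs1 (chr13:119690101-119690350, plus strand) and Cyp51 (chr5:4104698-4104947, minus strand) are shown as RefSeq gives them for build GRCm38.p6, since both genes fell together. Capitals mark CACCCCAC, the core of the sterol regulatory element known from the LDL receptor gene, and CCAAT, the motif of NF-Y, on either strand (reverse complements GTGGGGTG and ATTGG).
Hmgcs1: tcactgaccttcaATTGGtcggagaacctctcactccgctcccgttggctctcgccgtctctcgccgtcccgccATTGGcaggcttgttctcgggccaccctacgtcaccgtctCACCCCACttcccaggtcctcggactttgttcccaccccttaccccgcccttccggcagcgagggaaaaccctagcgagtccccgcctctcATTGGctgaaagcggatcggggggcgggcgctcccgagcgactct
Cyp51: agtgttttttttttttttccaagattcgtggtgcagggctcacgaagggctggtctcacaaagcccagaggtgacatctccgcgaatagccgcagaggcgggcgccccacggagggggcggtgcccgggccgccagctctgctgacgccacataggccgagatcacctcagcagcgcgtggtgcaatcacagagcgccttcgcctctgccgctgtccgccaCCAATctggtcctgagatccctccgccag
Of the 18 measured enzymes 15 have a window in the RefSeq table. CACCCCAC stood in the windows of 1 of the 15, against 805 of 27025 genes with a window (2.98%), and CCAAT in those of 15, against 10133 genes (37.5%). In the windows printed the motifs do not overlap. A match describes the letters of the window and shows no binding.

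The genes of 2 cell cycle inhibitors were higher in NOD T3. Among 15 D cyclins, their kinases and inhibitors, 2 rose and 1 fell, against 0.605% and 0.566% of all genes, and the median was 0.04. Cdkn1a, which encodes the inhibitor p21, had values of 0.82 and 1.08 in NOD T3, against -0.12 and -0.38 in B6 T2FO, and rose by 1.20 ± 0.18 (SE, adjusted p = 0.0021). Both of its probe sets passed. Cdkn1b, which encodes the inhibitor p27, had values of 1.36 and 0.61 in NOD T3, against -1.01 and -0.56 in B6 T2FO, and rose by 1.77 ± 0.27 (adjusted p = 0.0030). Its probe sets stood at 4.05 and -0.50, and without NOD T3 replicate 1 its adjusted p was 0.0555. Cdk6, a kinase that partners with D cyclins, had values of 0.06 and -0.41 in NOD T3, against 0.77 and 0.83 in B6 T2FO. Of its 3 probe sets, from -1.59 to -0.29, 1 passed. The mean of Cdk6 fell by 0.98 ± 0.16 (adjusted p = 0.0068). It did not pass without NOD T3 replicate 2 or without B6 T2FO replicate 2 (adjusted p up to 0.106). Of 19 genes of the cell cycle itself, such as Pcna (0.65) and Mcm3 (0.60), none passed. None had an unadjusted p under 0.05 (limma), which 8.04% of all genes had, and their median was 0.05.

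Of 14 genes listed as inhibitory coreceptors and their partners, 2 rose and none fell, against 0.605% and 0.566% of all genes. The list median was 0.26. Cd22, a sialic acid binding receptor that dampens signals from the B cell receptor, had values of 0.73 and 0.02 in NOD T3, against -0.66 and -0.99 in B6 T2FO. It rose by 1.21 ± 0.27 (SE, adjusted p = 0.0404), through a probe set at 2.20 while the other stood at 0.21. Cd22 passed in only 1 of the 4 repeats with 1 array left out, that without NOD T3 replicate 2 (adjusted p up to 0.487 in the others). Fcrl1 rose by 0.89 ± 0.17 (adjusted p = 0.0196) and did not pass in any of the 4 (adjusted p up to 0.154). Fcrl1 is described as an activating member of its family, so the list holds 1 riser of each kind. Fcgr2b, the inhibitory Fc receptor, differed by 0.66 and did not pass.

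Genes of the B cell receptor pathway did not pass, 0 of 20 in either direction, with a median of 0.23, and 1 had an unadjusted p under 0.05 (limma), namely Pik3ap1 (0.86 ± 0.23, adjusted p = 0.103). Pik3ap1, an adaptor that links receptors to PI3 kinase, did pass with the most variable probe set of each gene (2.29, adjusted p = 1.4e-05) and under quantile normalisation (0.87, adjusted p = 0.0479). Its 2 probe sets had opposite signs (-0.57 and 2.29), and taking the most variable one favours large differences. Vav2, a signalling protein that acts downstream of the receptor, passed with the 5′ control signal as a covariate (-0.86, adjusted p = 0.0166). Cd79a (1.80) and Dok3 (1.14) had larger differences and larger errors. Of 19 genes of BAFF receptors and NF-kB none passed and 2 had an unadjusted p under 0.05 (limma), with a median of 0.20. Ikbkb stood at 0.57, the mean of 5 probe sets that ran from -0.04 to 1.15. Ikbkb, a kinase that activates NF-kB, passed with the most variable probe set (1.15, adjusted p = 0.0432) and without NOD T3 replicate 2 (0.87, adjusted p = 0.0416). Of 14 BCL2 family genes none passed and 1 had an unadjusted p under 0.05. Pmaip1, which encodes the death inducer Noxa, had values of -1.06 and -2.28 in NOD T3, against -0.43 and 1.07 in B6 T2FO. Its replicates lay more than 1 unit apart in both groups, and its difference of -1.99 did not pass. Over all genes 1.17% passed and 8.04% had an unadjusted p under 0.05 (limma), so counts this small say little about the lists. At the size of error of this design, the absence of calls does not show that the pathways were alike.

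Of 24 transcription factors of the B lineage, 1 rose and none fell, with a median of 0.21. With 0.605% of all genes rising, 1 call says little about the list. Ets1, a factor that holds back plasma cell differentiation, had values of 1.14 and 0.27 in NOD T3, against -0.63 and -1.22 in B6 T2FO, and rose by 1.63 ± 0.36 (SE, adjusted p = 0.0421). It passed in only 1 of the 4 repeats with 1 array left out, that without NOD T3 replicate 2 (adjusted p up to 0.493 in the others). With probe sets made for 1 transcript it differed by 0.89 and did not pass (adjusted p = 0.792). Of 18 plasma cell and endoplasmic reticulum genes none passed and 3 had an unadjusted p under 0.05 (limma), which 8.04% of all genes had. Their median was 0.35. The 3 include the chaperone gene Hsp90b1 (1.65), which passed with the 5′ covariate (2.32, adjusted p = 0.0146), and Creld2 (0.57), a gene induced by stress of the endoplasmic reticulum. The immunoglobulin joining chain gene Jchain (1.87) and Xbp1 (0.64) did not pass.

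Antigen presentation genes outside Ctse did not pass. Of 16 MHC class II and costimulation genes Ctse alone rose, against 0.605% of all genes, and the median was 0.38. Ciita, the master regulator of class II genes, differed by 0.88 and missed the threshold (adjusted p = 0.0525), and H2-Ab1 (1.46) and Cd86 (-0.44) did not pass. Of 12 class I and processing genes none passed and 1 had an unadjusted p under 0.05 (limma), which 8.04% of all genes had. Nlrc5, the regulator of class I genes, had values of -0.59 and -1.32 in NOD T3, against 0.87 and 0.88 in B6 T2FO, with an adjusted p of 0.136. Of 18 Toll-like receptors and adaptors, Tlr6, which senses bacterial lipopeptides together with Tlr2, rose by 1.45 ± 0.20 (SE, adjusted p = 0.0013). Its values were 0.53 and 0.94 in NOD T3 and -0.85 and -0.56 in B6 T2FO. Tlr2 (0.42) and Tlr1 (0.34) did not pass.

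Of 21 migration and adhesion genes, 1 fell, against 0.566% of all genes, none rose and the median was 0.39. The gene that fell was Cd44, the hyaluronan receptor, of whose 4 probe sets (from -1.33 to 0.02) 1 passed. The mean of Cd44 fell by 0.60 ± 0.12 (SE, adjusted p = 0.0262). It did not pass without NOD T3 replicate 2, without B6 T2FO replicate 1 or without B6 T2FO replicate 2 (adjusted p up to 0.257). Of 19 immediate early, 11 heat shock and 11 serine and one-carbon genes none passed. An unadjusted p under 0.05 (limma) was held by 1, 1 and 0 of them, and by 8.04% of all genes. Phgdh, the first enzyme of serine synthesis, passed with the most variable probe set (-4.64, adjusted p = 0.00298) and with the 5′ covariate (-1.67, adjusted p = 0.00106). Its 4 probe sets ran from -4.64 to 0.37. The chaperone gene Hsp90aa1 passed with the covariate (1.61, adjusted p = 0.0205), and Hspe1, a mitochondrial chaperonin gene, with array medians subtracted (0.99, adjusted p = 0.0445) and under quantile normalisation (0.91, adjusted p = 0.0176). Of the 15 genes proposed for diabetes loci, Cd93 was used to choose the pair and is described above with no test, and no other passed. Ptpn22, a phosphatase of lymphocyte receptors, differed by 1.24 and did not pass. It did pass with the 5′ covariate (1.64, adjusted p = 0.0457), and against the same B6 T2FO arrays it passed in NOD T2FO (2.27, adjusted p = 0.0172) and in NOD FO (2.22, adjusted p = 0.0184). Nnt, a mitochondrial gene that is partly deleted in C57BL/6J mice, had values of 0.26 and 0.22 in NOD T3, against -0.16 and -0.38 in B6 T2FO. Its difference of 0.51 ± 0.19 did not pass in the pair (adjusted p = 0.365), and it was 0.53 in the other 20 arrays. Where its probe sets lie relative to the deletion was not examined.

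**Figure D4:**
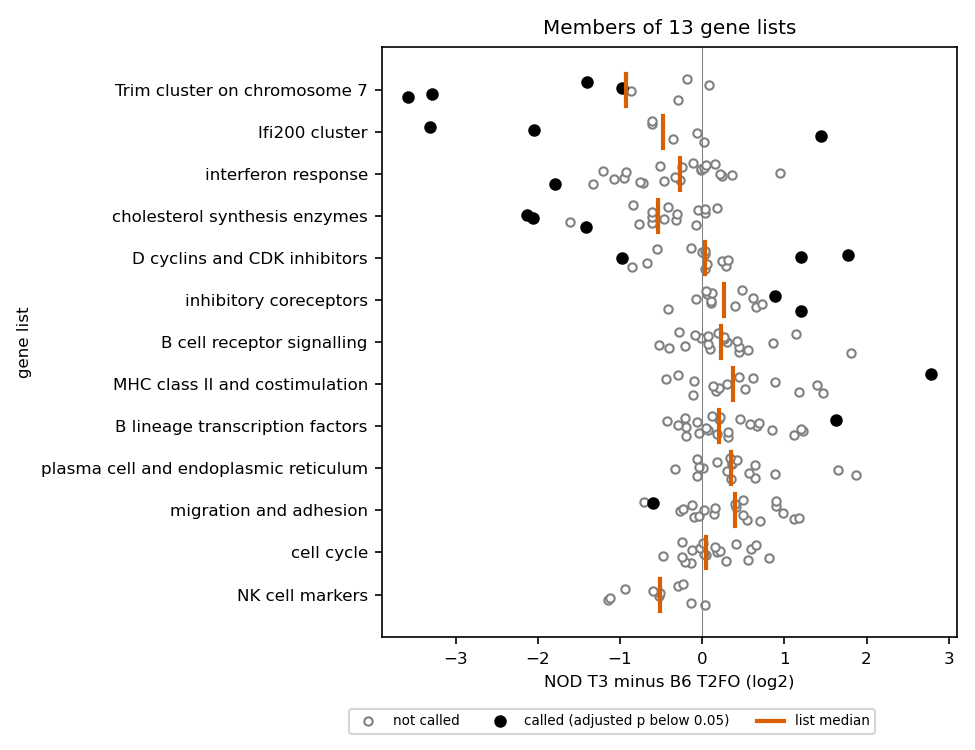
Difference NOD T3 minus B6 T2FO (log2) of each measured gene in 13 lists. Filled circles passed the test, open circles did not, and bars are list medians. The Trim cluster and the cholesterol enzymes have their medians at -0.92 and -0.54, and the lists from inhibitory coreceptors to migration and adhesion have theirs at 0.21 or more. By array, NOD T3 and B6 T2FO medians overlap in some of the latter. They are 0.33 and -0.08 against 0.05 and -0.30 for B cell receptor signalling. For plasma cell genes they are 0.33 and -0.18 against -0.39 and -0.03. For migration and adhesion they are 0.26 and -0.04 against -0.02 and -0.42. In the rest of the latter, both NOD T3 medians lie above both B6 T2FO medians.

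The same genes were then read in the 20 arrays that the pair does not use. These come from the same 4 pools of mice, so they repeat the comparison of the strains in other cells and not in other mice. At the 5′ end of beta-actin their B6 arrays lay at -3.88 to -0.77, other than replicate 2 of FO and of MZ. Their NOD arrays lay at -0.54 to 0.79. The lower 5′ signal of B6 is thus present in both comparisons, and its part in their likeness was not tested. Arrays of a strain with the same replicate number were averaged over the other 5 subsets, to stand for a pool, and on these 4 means 1092 genes passed, which is 6% (limma). Of these 567 were higher in NOD (3.12%) and 525 lower (2.89%). All 213 genes of the pair had the same sign there, as did 71.4% of all genes, and 186 also passed, 87.3% of the 213 and 17.0% of the 1092. These counts rest on the numbers marking a pool, which in B6 they may not. Deviations of same-numbered arrays correlated with r of 0.729 to 0.868 among B6 T1, T2FO, T3 and T2MZ and with r = 0.686 between B6 FO and MZ. Between the 4 and these 2 groups r was -0.653 to -0.338. The 5′ signal of beta-actin split the B6 groups in the same way. In T1, T2FO, T3 and T2MZ replicate 2 was the lower, at -3.65, -4.04, -3.27 and -3.88. In FO and MZ replicate 1 was the lower, at -3.51 and -3.47, against 0.47 and 0.42 in replicate 2. Whether pools or the 5′ signal gave these correlations was not tested. With the numbers of B6 FO and MZ crossed, which leaves every difference as it is and changes only its error, 5 genes passed (0.0275%), all among the 213, and 2046 had an unadjusted p under 0.05 (limma). Trim12a differed by -3.57 in the pair and by -3.57 elsewhere. Zfp979 differed by 4.42 and 4.93 and Cyp51 by -2.13 and -1.69 in the same order. The count of 1092 was 131 without the NOD arrays numbered 1, 131 without those numbered 2, 2060 without the B6 arrays numbered 1 and 1419 without those numbered 2.

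Whether the pair differed from the other subsets was tested by the contrast between its difference and that of the other 5 subsets. No gene passed, 0%, with a lowest adjusted p of 1.0 (limma), and 191 genes, 1.05%, had an unadjusted p under 0.05. The fit took the arrays as independent, although the pair and the other subsets share pools. With the pool as a random block no gene passed either, and 278 had an unadjusted p under 0.05 (limma). Genes that do not differ should give a share of about 0.05, so the errors may be too large. The absence of calls does not show that the pair was like the other subsets. The median standard error of this contrast was 0.22, and contrasts as large as 1.00 ± 0.28 (Pygm) and -1.06 ± 0.34 (Lynx1) did not pass. Among the 213 genes the smallest unadjusted p belonged to Slamf9, a receptor of the SLAM family singled out after its values had been seen, and the next to Slco5a1. Slamf9 had values of 0.03 and 0.59 in NOD T3, against 2.18 and 2.08 in B6 T2FO, a difference of -1.81 in the pair and of -0.86 elsewhere. Slco5a1, an organic anion transporter, differed by -1.43 in the pair and by -0.67 elsewhere. Of genes described above, Sqle differed by -2.06 in the pair and by -1.17 elsewhere, and Cdkn1a by 1.20 in the pair and by 0.64 elsewhere. None of these 4 passed after adjustment in the contrast with the other subsets.

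**Figure D5:**
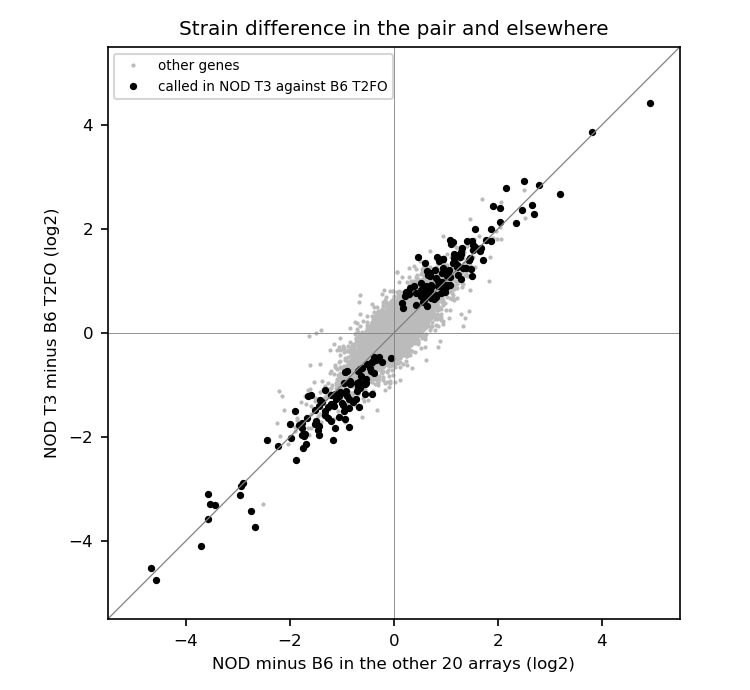
Difference NOD T3 minus B6 T2FO (y axis, log2) against the difference NOD minus B6 in the other 20 arrays (x axis, log2) for 18193 genes. Black points are the 213 genes that passed in the pair, and the diagonal marks equal differences. All 213 have the same sign on both axes.

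The 5′ signal was carried into the fit as a covariate, the difference between the 5′ and 3′ control probe sets of beta-actin. Beside 1 mean for each group, its slope comes only from differences between the 2 arrays of a group. That slope is then applied to the gap between the strains, so the fit cannot show how much of a difference between them the 5′ signal made. It also takes up spread between replicates, and its part in the count was not tested. The number of genes that passed was then 1253, 6.89% (658 higher and 595 lower), all 213 passed again, and 0 changed sign. The covariate itself was lower in both B6 T2FO arrays than in the NOD T3 arrays. In 2 B6 arrays, replicate 2 of FO and of MZ, the 5′ controls were as high as in NOD. NOD T3 was set against the mean of these, which keeps the NOD arrays and changes the subset as well as the 5′ signal, with no test. This comparison shares the NOD T3 arrays with the pair. Of the 213 genes 202 had the same sign in it and 11 the opposite sign, where 64.6% of all genes had the same sign, and the median ratio of its difference to that of the pair was 0.832. There Cyp51 differed by -1.52, Sqle by -1.65, Hmgcs1 by -1.09 and Cdkn1a by 1.43, whereas Cd22 differed by 0.30 and Cdk6 by -0.13.

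Other choices of counterpart share arrays with the pair and are given beside it. By matching labels, 244 genes passed between NOD T3 and B6 T3 (1.34%), 130 higher (0.715%) and 114 lower (0.627%). Between NOD T2FO and B6 T2FO 385 passed (2.12%), 175 higher (0.962%) and 210 lower (1.15%). By other readings of the markers, 430 passed between NOD T3 and B6 FO (2.36%), 253 higher (1.39%) and 177 lower (0.973%). Between NOD FO and B6 T2FO 448 passed (2.46%), 226 higher (1.24%) and 222 lower (1.22%). Cyp51 differed by -1.86 between NOD T3 and B6 T3, by -2.20 between NOD T2FO and B6 T2FO, by -1.76 between NOD T3 and B6 FO and by -2.18 between NOD FO and B6 T2FO. Trim12a differed by -3.32, -3.63, -3.94 and -3.62 in the same order, and Cdkn1a by 1.19, 1.14, 1.11 and 0.56. In that order, 156, 160, 128 and 176 of the 213 genes passed with the same sign. Between NOD T3 and B6 FO 7 of the 213 had the opposite sign. Of the 36 named genes that passed in the pair, 4, 5, 8 and 3 did not pass in these comparisons. The 8 include Rsad2 (-0.27), Cd22 (0.31), Cd44 (-0.17) and Cdk6 (-0.07). Cyp51 and Trim12a passed in all 4 of these comparisons. Cdkn1a passed in the first 3 and not between NOD FO and B6 T2FO (adjusted p = 0.136).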

How the data were processed

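The authors deposited RMA values on a log2 scale for 45101 probe sets in 24 arrays. RMA is named in the submitters' notes without a version, and base 2 is an assumption. The table was found to be centred per probe set, so no filter on dim probe sets was possible. Of the probe sets, 64 are controls, 34945 carry 1 gene in the platform annotation, 932 several and 9160 none. Symbols were checked by gene number against RefSeq GRCm38.p6 (34741 found, 0 changed). Averaging the probe sets of a gene gave 18193 genes, 9010 of them with more than 1 probe set.

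limma 3.58.1 (R 4.3.3) was fitted with 1 mean for each of the 12 groups, followed by contrasts, eBayes and Benjamini-Hochberg adjustment over all genes. Errors beside differences are standard errors. An exact permutation test of 2 arrays against 2 cannot give a p under 0.333, so calls rest on the spread shared by the groups, and the number of arrays limits the precision. The fit took the arrays as independent, although deviations of same-numbered arrays correlated with r of 0.729 to 0.868 among B6 T1, T2FO, T3 and T2MZ. It also took 1 spread for each gene, while the replicate SD ran from 0.186 in NOD MZ to 0.408 in B6 T2MZ. The adjusted p values may therefore be too small. With the pool as a random block 218 genes passed, and with array weights 180. On simulated data of 18193 genes the fit found 52% of 50 genes changed by 1 log2 unit and 96% of 50 changed by 2 units, and it called 7 unchanged genes. The simulated noise was independent between arrays, with 1 SD for each gene in all groups. It held no shared pools, no unequal spread and no loss of 5′ signal, so these figures do not give the performance on the real arrays. Same-numbered NOD T3 and B6 T2FO arrays come from unrelated pools, and their deviations did not correlate (r = 0).

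The members and the gene lists were chosen with earlier results of these data known. Named genes are the 10 largest passed differences each way without overlap between the arrays, other than immunoglobulin and subset genes, up to 4 members of each list that passed or 2 with the smallest p, Nnt, the sort and subset markers, and the control probe sets. The rule also takes the largest of the contrast with the other subsets, of which none passed. Other genes were named after their values had been seen. Promoters were aligned with Biopython 1.88. Plots used matplotlib 3.10.9 and Python 3.11.15.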

Additional observations from a re-analysis of the deposited data

How the results depend on the processing

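The count of 213 genes between NOD T3 and B6 T2FO was 85 to 125 with 1 array left out. It was 448 with the most variable probe set of each gene, a choice that favours large differences (187 of the 213 shared), 1253 with the 5′ covariate and 0 with only the 4 arrays compared, where 1052 genes had an unadjusted p under 0.05 (limma). It was 385 between NOD T2FO and B6 T2FO, and, in comparisons added after the data were seen, 430 between NOD T3 and B6 FO and 448 between NOD FO and B6 T2FO. In the others it was 142 to 272, with 247 under the replicate block, in which the numbers pair unrelated pools. In the other 20 arrays the count of 1092 was 1780 with the most variable probe set, 706 with the replicate block, 304 with a difference of at least 1 log2 unit, 2974 with the 20 arrays taken as independent, and 131 to 2060 without the arrays of 1 number in a strain. It was 5 with the numbers of B6 FO and MZ crossed, an alternative added after the data were seen. The contrast with the other subsets gave 0 genes throughout. With only probe sets made for 1 transcript Ctse was -0.403 and BC018473 -0.140, each read from its lower probe set alone, and Trim12a, Trim34a and Ets1 did not pass. Of 30 named genes that did not pass, 10 passed under another processing of the same arrays. Of the 36 named genes that passed, 22 passed in each of the 4 repeats with 1 array left out. Unless stated, the cause of a change was not tested.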

Other observations

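Several genes that differed between NOD T3 and B6 T2FO stand next to each other. All 213 could be placed on the RefSeq assembly, and 21 of them formed 10 runs of direct neighbours among the measured genes. The number to be had from other sets of genes was not computed, so the count is a description. Near copies such as Trim12a and Trim12c may also share probes. The run of Cbx6 (-1.86), D730005E14Rik (-1.96) and Apobec3 (-2.88) was lower in NOD T3 throughout. Apobec3 encodes a cytidine deaminase that restricts retroviruses. It had values of -1.46 and -1.02 in NOD T3, against 2.18 and 1.10 in B6 T2FO, and its difference in the other 20 arrays was -2.89. D17H6S56E-5 neighbours Vars, the valyl-tRNA synthetase gene (-2.44). Trim12a neighbours Trim12c, and Ifi213 neighbours Ifi209. Other neighbours went opposite ways, as Cdkn1b (1.77) and Lockd (-0.96), a long noncoding RNA beside it, or Frg1 (2.40) and Asah1 (-1.13), the acid ceramidase gene.

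Of the 213 genes, 27 did not pass in the other 20 arrays averaged by replicate number. Singled out after their values had been seen, Adm, which encodes the peptide adrenomedullin, had values of 0.25 and 0.06 in NOD T3, against 1.77 and 1.83 in B6 T2FO (-1.65 ± 0.37, SE, adjusted p = 0.0421). Its difference elsewhere was -0.93, and against the second arrays of B6 FO and MZ, where the 5′ controls were as high as in NOD, it was -0.01. Pygm, the muscle glycogen phosphorylase gene, differed by 1.47 in the pair and by 0.47 elsewhere. Slamf6, the receptor Ly108, had values of 0.30 and 0.34 in NOD T3, against -0.49 and -0.60 in B6 T2FO. It differed by 0.87 in the pair and by 0.32 elsewhere, and its probe sets ran from -0.92 to 2.37. A gene that passed in the pair and not elsewhere is not shown to differ between them. The test of that difference, whose errors may be too large, gave no gene.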
